A study of Caenorhabditis elegans with 2 samples.

Results

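Small nuclear RNA (snRNA) genes of C. elegans were examined for peaks of B0261.1, a protein that the annotation lists as vep-1 and describes as having a Myb-like domain. The members were all nuclear genes that the RefSeq annotation of WBcel235 (ce11) classes as snRNA and whose symbol does not begin with sls-, which leaves out the spliced leader genes. There were 99 of them among 46890 nuclear genes. The data were chromatin immunoprecipitation with sequencing (ChIP-seq) peak lists from whole young adults of strain OP662, genotype unc-119(tm4063) III; wgIs662, taken 64 hours after synchronization as starved L1 larvae. The strain is a single transgenic line. Its B0261.1 transgene adds GFP and FLAG at the C-terminus, and chromatin was precipitated through the GFP. Both sexes and all tissues were pooled. There was 1 group of 2 biological replicates, numbered 1 and 3, and no second condition. The control library was not analysed here, so no background at these genes outside the authors' own calling was measured.

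The spliceosome removes introns with the help of the U1, U2, U4, U5 and U6 snRNAs, each packed with proteins. U6, which sits at the catalytic centre, is made by RNA polymerase III, whereas the other U snRNAs are made by RNA polymerase II. In vertebrates both kinds of snRNA gene share an upstream promoter element, the proximal sequence element (PSE), and a TATA box next to it marks the genes read by RNA polymerase III. A run of T residues at the end of a gene is the usual stop signal for RNA polymerase III.

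The annotation gives no U type, so the genes were sorted by sequence. Genes that were at least 70% identical were joined into families, which were named by short conserved sequences. There were 24 U6, 13 U1, 20 U2, 5 U4 and 12 U5 genes, 74 in all. The other 25 members were not in a U family: 10 were smY genes, which encode small nematode RNAs that bind Sm proteins, and 15 could not be named. The label of spliceosomal genes therefore covers 74 of the 99 members. ACAGAGA, the part of U6 that pairs with the 5′ splice site, was held by 22 of the 24 genes. Over their first 101 bases, 17 of the 24 U6 genes were identical to each other. All 17 therefore hold no 31-base word that occurs once in the genome, and the sequence in front of each gene is what sets the copies apart.

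The 75 bases before the first base of 7 U6 genes that had a peak are printed next, from the RefSeq genome, because they hold the sequences the results turn on. The first block of capitals is the match to the PSE consensus GGAACCCGCNAGATGTCNG, and the second is TATATAA.
W05B2.8: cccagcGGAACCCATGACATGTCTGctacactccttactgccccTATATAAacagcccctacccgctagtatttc
F54D8.7: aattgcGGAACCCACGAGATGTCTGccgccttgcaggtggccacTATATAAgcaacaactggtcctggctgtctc
C28A5.7: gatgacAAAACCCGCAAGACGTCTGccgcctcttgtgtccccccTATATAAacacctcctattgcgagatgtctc
R07E5.16: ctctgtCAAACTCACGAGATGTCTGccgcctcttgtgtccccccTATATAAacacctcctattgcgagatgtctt
Y9C9A.111: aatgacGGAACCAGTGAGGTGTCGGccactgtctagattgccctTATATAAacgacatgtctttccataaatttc
T08B6.62: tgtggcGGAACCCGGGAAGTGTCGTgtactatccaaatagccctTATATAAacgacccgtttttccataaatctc
Y17G9A.85: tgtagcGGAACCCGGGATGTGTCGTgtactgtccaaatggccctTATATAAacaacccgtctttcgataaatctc
In ce11 these stretches are chrIII:10989604-10989678 (plus strand), chrIII:5080899-5080973 (minus), chrIII:4426956-4427030 (minus), chrIII:4414110-4414184 (plus), chrIV:4930879-4930953 (plus), chrIV:4885650-4885724 (minus) and chrIV:4864736-4864810 (minus). In each of them the PSE match began 69 bases and TATATAA 31 bases before the gene. The same held for K09C6.12, the other U6 gene with a peak.

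U6 genes without a peak are shown by 3 examples. Y17G9A.90 has a PSE match and no TATATAA, while F54C8.10 and K09B11.13 have TATATAA and no PSE match.
Y17G9A.90: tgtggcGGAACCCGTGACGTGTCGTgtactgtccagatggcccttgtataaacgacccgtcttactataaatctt
F54C8.10: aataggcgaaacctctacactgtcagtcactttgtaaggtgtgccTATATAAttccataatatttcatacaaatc
K09B11.13: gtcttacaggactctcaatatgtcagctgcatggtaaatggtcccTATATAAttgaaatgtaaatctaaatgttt
They lie at chrIV:4866736-4866810 (plus), chrIII:9449494-9449568 (plus) and chrIV:13440654-13440728 (minus). Genes of the polymerase II families and the unnamed gene M163.13, all of which had a peak, are shown for contrast.
sup-6: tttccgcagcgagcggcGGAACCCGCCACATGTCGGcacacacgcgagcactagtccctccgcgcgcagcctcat
C52E4.8: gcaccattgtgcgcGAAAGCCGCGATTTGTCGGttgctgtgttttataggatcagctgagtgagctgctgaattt
Y69A2AR.36: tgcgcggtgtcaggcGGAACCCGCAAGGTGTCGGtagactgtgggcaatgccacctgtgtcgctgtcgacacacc
M163.13: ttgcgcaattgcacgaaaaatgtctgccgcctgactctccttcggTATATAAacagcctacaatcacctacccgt
These are from a U1, a U4, a U5 and the unnamed gene, at chrII:12944968-12945042 (minus), chrV:11980043-11980117 (plus), chrIV:2655186-2655260 (minus) and chrX:14476792-14476866 (plus). The first 3 have the PSE match closer to the gene than U6 does and no TATATAA. M163.13 has TATATAA and no PSE match.

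The authors deposited 4 lists of regions on ce11. The IDR list held the 1550 peaks that passed a limit on the irreproducible discovery rate, which scores how well the replicates agree on a peak. The pooled list and that of replicate 3 held 30000 regions each, and that of replicate 1 held 23931. Each region has a summit, its highest point, and a signal, the authors' value of its height, which ran from 178.9 to 15652 in the IDR list and from 10.5 to 2749 in that of replicate 1. Signal is compared within a list, and rank (1 for the highest signal) between lists. A summit within 100 bp of a gene counts as being at that gene. The offset is the distance of the summit from the first base of the gene on its own strand, negative upstream. Read depth is not given in the lists.

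Of the 99 genes, 19 had an IDR peak (19.2%), with 25 summits in all. The share over all nuclear genes was 3.57%, and over the other nuclear genes of 250 bp or shorter it was 4.46%. Among U6 genes 8 of 24 had an IDR peak (33.3%), against 11 of the 75 other members (14.7%). By family these were 5 of 13 U1 genes, 1 of 20 U2 genes, 1 of 5 U4 genes, 2 of 12 U5 genes, 0 of 10 smY genes and 2 of 15 unnamed genes. Genes of other small RNAs counted in the same way gave 85.6% for tRNA genes, 21.7% for snoRNA genes and 20% for SL RNA genes. Genes are not replicates, so these shares carry no test. Each of the 19 genes also had a summit in the pooled list and in both replicates' lists. The authors passed such regions to IDR, so this is no separate support.

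**Figure D1:**
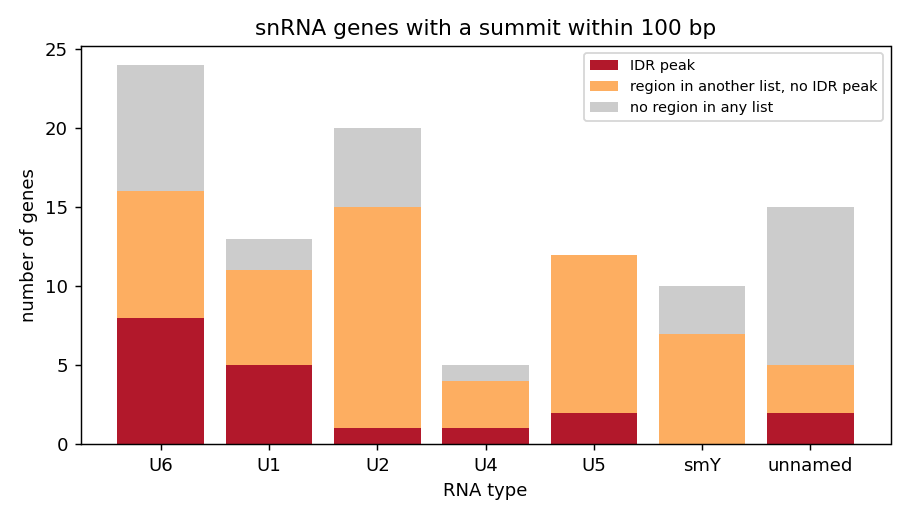
Number of genes of each RNA type (vertical axis) with an IDR peak (red), with a region in another list but no IDR peak (orange) and with no region in any of the 4 lists (grey). Of the 24 U6 genes 8 had an IDR peak and 8 had no region, and all 12 U5 genes had a region in some list.

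In the full lists, which reach down to weak regions, the share of U6 genes with a summit did not stand out from that of the other members. The pooled list had a summit at 16 of 24 U6 genes (66.7%), against 42 of 75 other members (56.0%), with 24.8% for all nuclear genes and 11.8% for the other short genes (250 bp or shorter). In the replicates' own lists the share of U6 genes was 41.7% in replicate 1 and 62.5% in replicate 3 (52.1% ± 14.7, SD, n = 2). For the other members it was 60% and 49.3% (54.7% ± 7.54, SD, n = 2). The shares over all nuclear genes were 24.4% in replicate 1 and 24.8% in replicate 3, and over the other short genes 10.2% and 11.8%. U6 was the lower of the 2 kinds in replicate 1 and the higher in replicate 3. Among the polymerase II families, 9 of 13 U1, 12 of 20 U2, 3 of 5 U4 and 9 of 12 U5 genes had a pooled summit, as did 4 of 10 smY and 5 of 15 unnamed genes. No list had a summit at 29 of the 99 members, 8 of them U6 genes.

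W05B2.8 had the strongest peak of any member. This U6 gene lies in an intron of dhc-4 on III from 10989679 to 10989780 (plus strand). Its signal was 3143 in the IDR list, 565 in replicate 1, 2630 in replicate 3 and 3136 in the pooled list. Its rank was between 220 and 222 in all 4 lists. The summit lay at offset -26 in the IDR list, -30 in replicate 1 and -26 in replicate 3.

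F54D8.7, outside protein-coding genes on III from 5080798 to 5080898 (minus strand), was the second U6 gene by signal. Its signal was 2077 in the IDR list, 392 in replicate 1 and 1741 in replicate 3, at ranks 391, 383 and 398. The offset was -30 in the IDR list, -28 in replicate 1 and -27 in replicate 3. These 2 genes kept their place at the head of the U6 genes in every list.

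Next came C28A5.7 and R07E5.16, both on III and both in introns, of C28A5.6 and mpc-1. C28A5.7 (4426854 to 4426955, minus strand) had a signal of 1106.5 in the IDR list, 199 in replicate 1 and 943 in replicate 3. R07E5.16 (4414185 to 4414286, plus strand) had 933.5, 163.4 and 808.5 in the same 3 lists. They differed from the other U6 genes in where the summits fell. In the IDR list and in replicate 3 the summit of C28A5.7 was at offset -59, and in replicate 1 at 75. R07E5.16 had offsets of -44 in the IDR list and in replicate 3, and 92 in replicate 1. At both genes the summit of replicate 1 was inside the gene, which holds no unique 31-base word. Upstream of these genes, 63 of the 75 bases before the first base were identical (84%). R07E5.16 had its summit at -44 within a stretch, TATATAA included, that was the same in both genes. That of C28A5.7 at -59 was upstream of this stretch. The letters of the shared stretch cannot tell these genes apart, and its part in the summit positions was not tested.

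The other 4 U6 genes had weaker peaks. Y9C9A.111, in an intron of Y9C9A.8 on IV (4930954 to 4931055, plus strand), had a signal of 928 in the IDR list, 169 in replicate 1 and 762 in replicate 3. K09C6.12 on V (859091 to 859192, plus strand), whose first base is in an untranslated exon of K09C6.2, had 659, 127 and 546 in those lists. T08B6.62, in an intron of str-166 on IV (4885549 to 4885649, minus strand), had 599.8, 102 and 490.2. Y17G9A.85, outside protein-coding genes on IV (4864635 to 4864735, minus strand), had 478, 104 and 379. The order of the 8 genes by signal was the same in the IDR list and in replicate 3. In replicate 1 the neighbours R07E5.16 and Y9C9A.111 changed places, as did T08B6.62 and Y17G9A.85, so these neighbours are not separated beyond the spread between the replicates.

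Over the 8 U6 genes the median signal was 930.7 and the median rank 602.5 in the IDR list, where the 11 other members with a peak had a median signal of 363.9 and a median rank of 914. U6 ranks ran from 220 to 1040 in replicate 1 and from 220 to 845 in replicate 3. Ranks of the other 11 ran from 547 to 2630 in replicate 1 and from 539 to 1985 in replicate 3. The ranges overlap in both replicates. The median ranks were 746 for U6 and 1218 for the others in replicate 1, and 607.5 for U6 and 1015 for the others in replicate 3, whose list is the longer. With the 1550 highest-signal regions of a single replicate, 8 U6 genes had a summit in each replicate, while the other members had 6 in replicate 1 and 11 in replicate 3. The count of the other members therefore moves with replicate 3. The share over all nuclear genes was not counted in these cut lists. By comparison, occupied tRNA genes had a median signal of 2588.5 and occupied snoRNA genes 3165 in the IDR list, above 7 of the 8 U6 genes for tRNA genes and above all 8 for snoRNA genes.

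**Figure D2:**
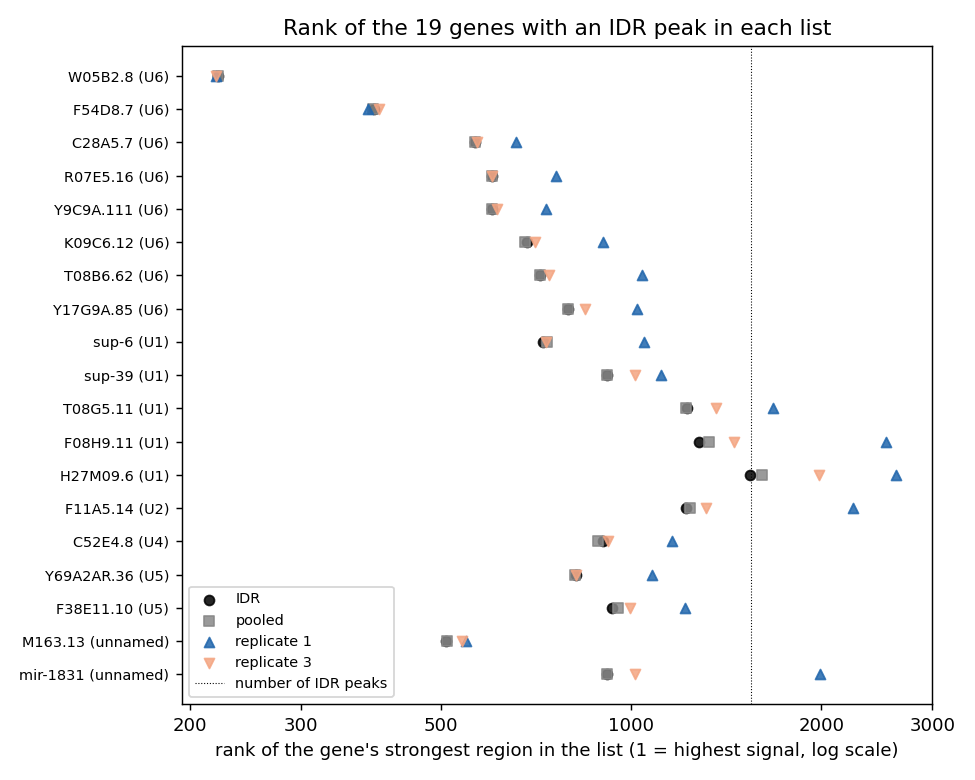
Rank of the strongest region at each of the 19 genes with an IDR peak (horizontal log axis, 1 is the highest signal) in the IDR list, the pooled list and each replicate's list, with U6 genes at the top. W05B2.8 ranks between 220 and 222 in every list, and ranks in replicate 1 lie to the right of those in replicate 3 for most genes.

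The nearest IDR summits of U6 genes lay upstream, mostly near TATATAA. In the IDR list the nearest summit was upstream of the gene for 8 of 8 U6 genes, with a median offset of -28.5 (from -59 to -17), against 5 of 11 for the other members, with a median of 28 (from -33 to 183). The strongest summit was upstream at 8 of 8 U6 genes and at 3 of 11 other members. Measured from the first base of TATATAA, 7 of the 8 U6 summits were within 14 bp, and the median was 2.5 bp. C28A5.7 was the exception, at 28 bp before TATATAA, within its PSE match. For the same 8 U6 genes the median offset was -27.5 in replicate 1 and -28 in replicate 3 (-27.75 ± 0.35, SD, n = 2). For the same 11 other members it was -2 in replicate 1 and -13 in replicate 3, so neither replicate's full list gave a downstream median. With each replicate's list cut to the length of the IDR list, the median was downstream for the other members that had a summit there. It was 124 over 6 genes in replicate 1 and 28 over 11 genes in replicate 3. The sign for the other members therefore depends on whether weak regions are included. In the full lists the nearest summit was upstream at 6 of 8 U6 genes and 6 of 11 other members in replicate 1. In replicate 3 it was upstream at 8 of 8 U6 genes and 8 of 11 other members.

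The replicates agreed less on the position of a summit at the other members. The nearest summits of the replicates were a median of 7 bp apart at the 8 U6 genes (from 1 to 136 bp) and 56 bp apart at the other 11 (from 7 to 156 bp). They were within 14 bp of each other at 6 of 8 U6 genes and at 2 of 11 others. Occupied tRNA genes had a median offset of -25 and occupied snoRNA genes one of -80 in the IDR list. All 17 identical U6 copies, the 8 with a peak included, hold no unique 31-base word, and how the authors treated reads that match several places is not given in the sources used here. The part of this in the summit positions was not tested.

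**Figure D3:**
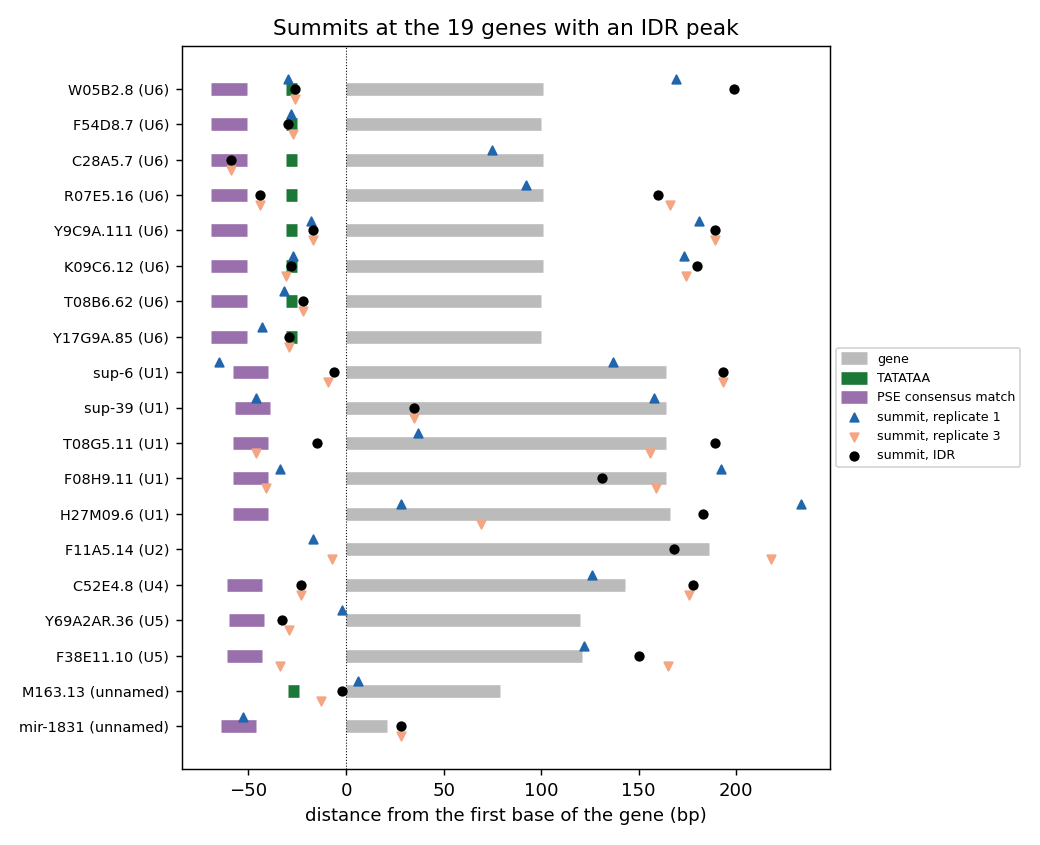
Positions of summits at the 19 genes with an IDR peak, as distance from the first base of the gene in bp. Grey bars are the genes, green bars TATATAA, purple bars matches to the PSE consensus, and points are summits in the IDR list (circles), replicate 1 (upward triangles) and replicate 3 (downward triangles). The nearest IDR summits of the U6 genes in the upper rows mostly gather at the green bars, at a median offset of -28.5. Some U6 genes also have summits inside or downstream of the gene. Summits of the other genes lie on both sides of the gene start.

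At 7 genes the IDR list had a summit on each side of the gene. These were the U6 genes W05B2.8, Y9C9A.111, K09C6.12 and R07E5.16, the U1 genes sup-6 and T08G5.11 and the U4 gene C52E4.8. At the 4 U6 genes the upstream summit was the stronger, as at W05B2.8 with 3143 upstream and 790.4 downstream. At both U1 genes the downstream summit was the stronger, as at sup-6 with 476.7 upstream and 582.8 downstream. The 2 summits of a gene were 199 to 225 bp apart, and no 2 summits in any of the 4 lists were closer than 199 bp. The spacing of these summits is therefore close to the smallest that the lists hold.

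The identical U6 copies were grouped by the sequence of the gene, so that sequence cannot separate occupied from unoccupied ones among them. A pair of upstream sequences went with the peaks. Of the 17 U6 genes identical over 101 bases, 8 had an IDR peak and 9 did not. No U6 gene outside these 17 had an IDR peak. TATATAA, with its first base 45 to 15 bases before the gene, was found at 15 of 24 U6 genes, at none of the U1, U2, U4, U5 and smY genes and at 1 unnamed gene. It was found on the gene's strand at 1.3% of all 46888 gene starts with a complete window. The PSE consensus was made from U1, U4 and U5 genes on II, IV and V, of which 22 of 28 could be aligned on the letters AACCC. A match needed 13 of its 17 defined letters, which 0.282% of all gene starts had, with its first base 85 to 40 bases before the gene. It was found at 9 of 24 U6 genes, 13 of 13 U1, 1 of 20 U2, 4 of 5 U4, 12 of 12 U5 and 8 of 10 smY genes. The U1, U4 and U5 counts are no independent result, because the consensus was made from genes of these families. A match is a description of the letters and no proof of a site.

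Both sequences were present at 8 of 24 U6 genes, and these were the 8 U6 genes with an IDR peak. The other 16 U6 genes had no IDR peak. Of these, 7 had TATATAA with 10 to 12 letters of the PSE, and 9 lacked TATATAA. The windows, the consensus and the number of letters were chosen after the peaks and the sequences had been seen. A match of 12 letters gave 10 U6 genes with both sequences, 8 of them with an IDR peak. A match of 14 letters gave 5, all with an IDR peak. It left out R07E5.16, Y17G9A.85 and T08B6.62, which have 13 letters and an IDR peak, so the sets were then no longer the same. The first base of the PSE match lay at offset -69 at all 9 U6 genes that had one. Its median offset was -58 at U1, -61 at U4, -60 at U5 and -59 at smY genes, which is closer to the gene.

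Y17G9A.90 and Y17G9A.85 make the closest contrast. Both are among the identical U6 copies on IV, and the 75 bases before them are identical at 66 of 75 positions (88%). Y17G9A.85 had an IDR peak of signal 478, and Y17G9A.90, in an intron of str-172 from 4866811 to 4866912 (plus strand), had no region in any of the 4 lists. Counted in bases before the first base of the gene, the 1 difference within TATATAA is A30G, with the base of Y17G9A.85 first. Of the other differences, G61T and T58C are within the PSE match. All 31-base words in the 200 bp upstream of each gene were unique. The part of any single difference was not tested.

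The 7 U6 genes with TATATAA and fewer PSE letters were F54C8.10 and the 6 copies from K09B11.11 to K09B11.16. These 6 lie near each other on IV, each with its first base in intron sequence of mam-3. A pooled summit was found at 6 of the 7, with signals from 22.1 to 114.3. F54C8.10 was the strongest of them with 114.3, and K09B11.16 and K09B11.13 had 73.3 and 59.4. In replicate 1 a summit was found at 2 of the 7 and in replicate 3 at 6. Their pooled summits had a median offset of 27, and 1 of the 6 was upstream. These copies are also repeated in front of the gene. The share of unique 31-base words in the 200 bp upstream was 6.5% to 84.7% at these 7 genes and 85.3% to 100% at the 8 occupied ones. The part of this in the missing peaks was not tested.

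Among the 9 U6 genes without TATATAA, 2 had a pooled region. F54C8.9, in an intron of F54C8.6 on III, had a pooled signal of 149.9 at offset 54 and no summit in either replicate's list. F54C8.8, in the same gene, had 39.0 in the pooled list and 28.3 in replicate 3. The other 7 had no region in any list. The 200 bp upstream of 4 of these were wholly unique, Y17G9A.90 included. A run of 5 T at the 3′ end, the usual stop signal of RNA polymerase III, was searched from the last 10 bases of the gene to 20 bases after it. It was found at 21 of 24 U6 genes, occupied and unoccupied, at none of the U1, U2, U4 and U5 genes and at 1 smY and 5 unnamed genes. The share over all genes was not counted, so a run is no proof of a stop signal. The first base of 20 of 24 U6 genes lay in an intron of a protein-coding gene. So did that of 11 of 12 U5, 2 of 13 U1, 7 of 20 U2, 1 of 5 U4 and 6 of 10 smY genes. An intronic place was therefore not particular to U6.

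**Figure D4:**
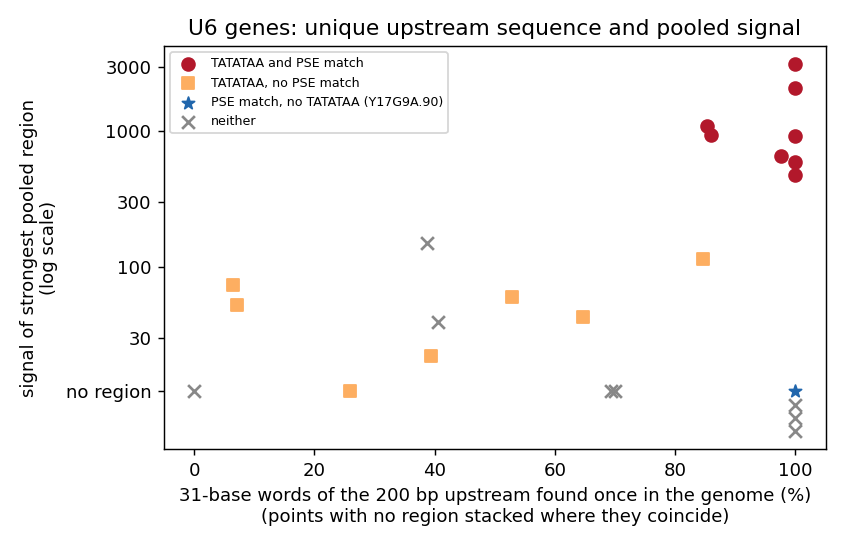
The 24 U6 genes by the share of 31-base words of the 200 bp upstream that occur once in the genome (horizontal axis, percent) and the signal of their strongest pooled region (vertical log axis, with genes without a region at the bottom). The 8 genes with TATATAA and a PSE match (red circles) lie above all others and between 85.3% and 100%, where Y17G9A.90 (blue star) and 3 genes with neither sequence have no region.

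U1, the snRNA that pairs with the 5′ splice site first, had the most occupied genes of the polymerase II families. The strongest peaks among them were at sup-6 on II (12944803 to 12944967, minus strand), known for mutant forms that suppress a splice-site mutation. Its signal was 582.8 in the IDR list at offset 193, 99.6 in replicate 1 and 504 in replicate 3. The gene sup-39 on II (6968394 to 6968558, minus strand), known for the same kind of mutant form, had 363.9 in the IDR list at offset 35, 90.3 in replicate 1 and 281 in replicate 3. The snRNA-class gene mir-1831 lies inside sup-39 and shares that IDR summit, so these 2 of the 19 genes rest on 1 peak.

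The other U1 genes with a peak were T08G5.11 and F08H9.11 on V and H27M09.6 on I. T08G5.11 had an IDR signal of 233.4 at offset 189 and 189.8 at offset -15. F08H9.11 had 221.9 at offset 131, and H27M09.6 had 179.8 at offset 183, near the lowest signal in the IDR list. All 13 U1 genes, a family from which the consensus was made, had the PSE match, the 8 without a peak included. Among those, F08H9.10 had a pooled signal of 155.6, C27H5.11 had 103.1, and T27E4.12 and T27E4.22, which overlap and share a region, had 64.2.

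U2, which pairs with the branch point, had 1 occupied gene of 20. F11A5.14 on V (16225701 to 16225887, minus strand) had an IDR signal of 234.2 at offset 168. Its rank was 2242 in replicate 1 and 1315 in replicate 3, where its signal was 196.1, so it was below the first 1550 regions of replicate 1. Further U2 genes had pooled signals just under the lowest of the IDR list, with 159.4 at C47F8.9, 144.7 at F08G2.10, 144.1 at F56H6.15 and 131.5 at F56H6.14. A pooled summit was found at 12 of 20 U2 genes, with a median signal of 125.15.

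U4, which keeps U6 paired until the spliceosome is activated, had 1 occupied gene of 5. C52E4.8 on V (11980118 to 11980261, plus strand) had an IDR signal of 369.0 at offset -23 and 344.2 at offset 178. Its strongest signal was 83.6 in replicate 1, at offset 126, and 326.7 in replicate 3, at offset -23. Of the other 4 genes, F10D2.13 had a pooled signal of 122.5 and K03B8.10 one of 85.4.

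U5, which holds the exon ends together, had 2 occupied genes of 12. Y69A2AR.36, in an intron of gfrl-1 on IV (2655065 to 2655185, minus strand), had an IDR signal of 452.9 at offset -33, 96.5 in replicate 1 and 398.8 in replicate 3. F38E11.10 on IV (9444642 to 9444763, plus strand) had 348.7 at offset 150, in an untranslated exon of hsp-12.3, with 75.3 in replicate 1 and 286.6 in replicate 3. Without a peak were F32B5.9 (pooled signal 162.6), F42C5.12 (121.2), ZK897.2 (103.6) and F38E11.11 (99.8). All 12 had the PSE match, whose consensus was made in part from U5 genes, and each had a summit in some list.

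M163.13, one of the 15 unnamed genes, ranked above all members but 2 U6 genes. It lies outside protein-coding genes on X from 14476867 to 14476946 (plus strand) and was at most 50% identical to any other member. Its signal was 1418 in the IDR list, 256 in replicate 1 and 1090 in replicate 3, at ranks 509, 547 and 539. The summit was at offset -2 in the IDR list, 6 in replicate 1 and -13 in replicate 3. TATATAA began 30 bases before the gene, as at no other member outside U6. Its best PSE match had 10 letters, a number reached anywhere in the window at 4.7% of all gene starts. This match began at offset -68. The U6 genes F54C8.10 and K09B11.15 had the same number of letters, the same 2 positions and no IDR peak. Like them, M163.13 had a run of 5 T at its 3′ end. The region held 3 IDR summits, the other 2 of them beyond 100 bp from the gene.

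Of the smY genes none had an IDR peak, although 8 of 10 had the PSE match. The pooled list had a summit at smy-9 (58.2), smy-8 (42.2), smy-4 (39.7) and smy-1 (33.3). The unnamed genes F56A12.5, F20D1.21 and T10H4.16 had pooled signals of 48.9, 35.6 and 22.9.

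**Figure D5:**
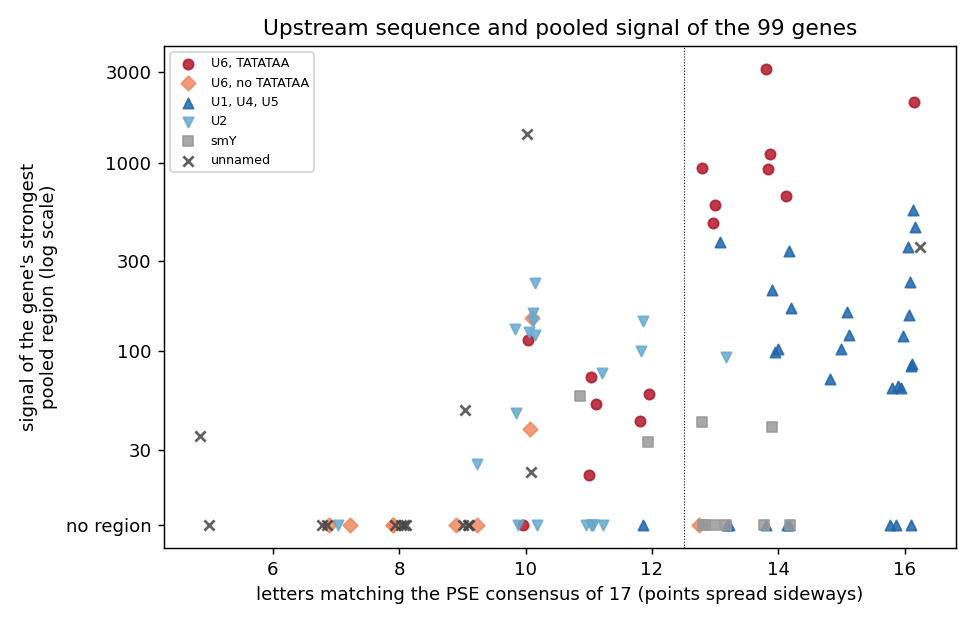
Letters of the PSE consensus matched upstream of each of the 99 genes (horizontal axis, 17 at most, points spread sideways, dotted line at the threshold of 13) and signal of the strongest pooled region (vertical log axis, genes without a region at the bottom). The U6 genes with TATATAA to the right of the line lie from 477 upward, those to the left at 114.3 or below, and U1, U4 and U5 genes to the right of the line reach from no region to 563.3.

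No IDR summit at a member was within 100 bp of a tRNA gene. Of the 25 summits, 11 were also within 100 bp of an unclassified noncoding RNA gene and 14 near no other noncoding gene. By position, 10 were outside protein-coding genes, 9 in introns, 4 in coding exons and 2 in untranslated exons. Next to the distance limit of 100 bp, the farthest summit inside it was the downstream one of W05B2.8, at 98 bp and with a signal of 790.4. The nearest outside it was a summit of signal 632.7 at 120 bp from M163.13. With a limit of 50 bp, 7 of the 12 summits at U6 genes and all 13 at the other members were kept.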

How the data were processed

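The data were ChIP-seq peak lists of 1 group of 2 biological replicates, grouped by the labels. Per the deposited file descriptions, the authors called regions against a control for each replicate and for both together and passed them to IDR. The IDR threshold, aligner and peak caller are not given in the sources used here. The deposited signal of a region is the authors' own value, with no stated normalization and no read depth. Lists on build ce10 were not used. Nothing says how cultures were separated beyond the labels' biological replicate numbers.

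Summits were placed on the RefSeq annotation of ce11 with 1-based coordinates. Families came from pairwise identity (70%), and 1 gene joined U2 by its first 40 bases. Named were all members with an IDR peak, the 4 of each type without one by pooled signal, and those next to the distance limit. The members, the lists of genes and the upstream sequences searched were chosen with earlier results of these data known. Values across genes carry no test. The placement and motif search were checked on simulated data. The work used Biopython 1.88, pandas 2.3.3 and matplotlib 3.10.9 in Python 3.11.15.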

Additional observations from a re-analysis of the deposited data

How the results depend on the processing

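Signals are the authors' and depth is not given, so weak regions cannot be told from noise here, and 2 replicates give a rough spread. With the whole pooled list in place of the IDR list, 16 U6 genes with 19 regions had a summit, with a median offset of -19.5 and a median rank of 1311.5, and 42 other members with 58 regions, with a median offset of -9.5, which changes sign, and a median rank of 2612. With summits within 25 bp, 2 U6 genes with 2 peaks remained, at a median offset of -19.5, and within 50 bp 7 peaks, at -28. With the IDR peaks above the median signal alone the U6 median offset was -28, and 2 other members with 2 peaks were left, at a median rank of 617.5. Each replicate's first 1550 regions alone gave U6 median offsets of -28 to -27.5 and median ranks of 607.5 to 746, and for other members 6 to 11 genes, 6 to 13 peaks, median offsets of 28 to 124 and median ranks of 1015 to 1096; the lower counts and the larger offset and rank are without replicate 3. U6 genes with a peak were 8 in each replicate alone. No share over all nuclear genes was counted in these cut lists. A PSE match of 14 letters left 5 U6 genes with both sequences, 5 of them with a peak. The cause of these shifts was not tested. The matches of 12 letters, the distance of 250 bp and U6 genes limited to those holding ACAGAGA changed no count of occupied U6 genes. No paired analysis was possible because there was 1 group, with no comparison between groups.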

Other observations

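The U6 pair of sequences was searched for on both strands of the whole genome, as a PSE match of 13 letters with TATATAA 36 to 40 bases after its first base. There were 10 such sites, each with 38 bases between the starts, and each had an IDR summit within 28 bp of TATATAA. The 8 U6 genes with a peak accounted for 8 of them. The other 2 lie in front of rpr-1 on I, the gene of the RNase P RNA, which in many animals is made by RNA polymerase III, and mrpr-1 on II, the gene of the RNase MRP RNA. The summit in front of rpr-1 had a signal of 3406 at rank 191, above that of W05B2.8, and was 13 bp from TATATAA. The summit in front of mrpr-1 had a signal of 1918 at rank 420, 8 bp from TATATAA. The windows, the spacing and the number of letters were chosen after the peaks at the 8 U6 genes had been seen. The peaks at these 8 sites are therefore no independent count, and the other 2 sites were scored on the same lists. The genome was searched with 13 letters only, and the match at mrpr-1 has just 13. With 12 letters 2 further U6 genes hold both sequences and have no IDR peak. Among gene starts with TATATAA and no PSE match, 17 of 598 had an IDR peak at the gene (2.84%). Among those with the PSE match and no TATATAA 33 of 122 did (27%). The share over all nuclear genes was 3.57%. Of all 132 starts with a PSE match, 48 were members, genes behind the consensus included, and 31 were snoRNA genes. These shares count summits within 100 bp of the gene, whereas the 10 sites were measured from TATATAA. These counts describe 1 annotation and 1 set of lists and carry no test.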
